A study of Mus musculus with 40 samples.

Results

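The genes described here are 35 genes of cholesterol and fatty acid synthesis and sterol efflux that are controlled by, or that control, sterol regulatory element-binding proteins (SREBPs). They were chosen by name and matched by symbol to Ensembl mouse identifiers. Each of the 35 matched 1 of the 55359 identifiers in the files, and all 35 were among the 17345 genes tested after a filter on low counts. Their transcripts were measured by bulk RNA sequencing in right kidneys of male C57BL/6 mice, with 8 groups of 5 mice and 1 library per mouse. Vehicle mice received sesame oil by gavage, and the other 7 groups received sesame oil with 2,3,7,8-tetrachlorodibenzo-p-dioxin (TCDD) at 0.03, 0.1, 0.3, 1, 3, 10 or 30 µg/kg. All mice were gavaged at intervals of 4 days, starting at 30 days of age, and kidneys were taken 28 days later, at 58 days. TCDD persists in tissue and binds the AhR (aryl hydrocarbon receptor), which acts as a transcription factor, and the design asks which kidney transcripts change with dose.

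Cholesterol is built from acetyl-CoA through mevalonate, isoprenoid diphosphates, squalene and lanosterol. When membranes of the endoplasmic reticulum are short of sterol, SCAP carries SREBP to the Golgi, where it is cut free to enter the nucleus. INSIG proteins hold SCAP back when sterol is plentiful. SREBP-2, the product of Srebf2, mainly drives sterol synthesis genes, and SREBP-1c, from Srebf1, mainly drives fatty acid synthesis genes. Sterol excess also activates the liver X receptors, which induce the efflux pumps Abca1 and Abcg1. SREBPs bind sterol regulatory elements in promoters, usually beside a CCAAT box bound by NF-Y or a GC box bound by Sp1.

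Promoter windows from RefSeq (GRCm38.p6), each from 250 bases before to 50 bases after a start site, were matched for 28 of the 35 genes, in 37 windows. Fdps, Fdft1, Sqle, Stard4, Abcg1, Scd1 and Scd2 were not matched. The stretches printed next belong to 5 of the sterol genes that fell at the highest dose and to Hmgcs1, the first enzyme committed to the pathway. They are shown so that the promoters of these genes can be read side by side. Each is the 150 bases that end just before a start site, 5′ to 3′ on the gene's strand. Dhcr7 had 3 windows, and the one printed was chosen for having the most CCAAT matches. Each of the other genes printed had 1 window. Capitals mark CCAAT in either orientation (CCAAT or ATTGG) and, in Hmgcs1, the core of a sterol regulatory element (CACCCCAC). Hmgcs1 is at chr13:119690201-119690350 (plus strand), Mvd at chr8:122443423-122443572 (minus), Idi1 at chr13:8885456-8885605 (plus), Nsdhl at chrX:72918371-72918520 (plus), Sc5d at chr9:42264301-42264450 (minus) and Dhcr7 at chr7:143830064-143830213 (plus).
Hmgcs1: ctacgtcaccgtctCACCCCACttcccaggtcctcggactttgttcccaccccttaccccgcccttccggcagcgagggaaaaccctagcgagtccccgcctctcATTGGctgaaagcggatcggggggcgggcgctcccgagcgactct
Mvd: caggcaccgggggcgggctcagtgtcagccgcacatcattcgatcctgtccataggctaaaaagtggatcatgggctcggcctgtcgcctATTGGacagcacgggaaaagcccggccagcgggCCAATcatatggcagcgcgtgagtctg
Idi1: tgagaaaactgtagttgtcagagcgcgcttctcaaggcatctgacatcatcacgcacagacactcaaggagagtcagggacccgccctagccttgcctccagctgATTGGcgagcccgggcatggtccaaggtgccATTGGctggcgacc
Nsdhl: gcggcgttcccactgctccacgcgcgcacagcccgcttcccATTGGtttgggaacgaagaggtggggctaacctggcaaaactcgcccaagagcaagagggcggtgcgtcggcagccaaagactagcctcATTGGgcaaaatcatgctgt
Sc5d: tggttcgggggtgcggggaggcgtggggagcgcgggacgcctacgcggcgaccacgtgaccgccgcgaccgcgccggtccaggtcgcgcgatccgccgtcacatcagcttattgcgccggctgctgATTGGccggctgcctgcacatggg
Dhcr7: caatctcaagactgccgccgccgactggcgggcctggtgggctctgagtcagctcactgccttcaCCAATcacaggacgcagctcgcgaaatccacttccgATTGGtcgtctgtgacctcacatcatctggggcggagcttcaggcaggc

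Mvd, Idi1, Nsdhl and Dhcr7 each held 2 CCAAT matches in these 150 bases, and Hmgcs1 and Sc5d held 1. The count of Dhcr7 is the largest over its 3 windows. Over the whole windows of the sterol synthesis genes, CCAAT on either strand was found in 15 of 19 windows (78.9%), against 37.4% of all 32851 windows in the table. A GC box (GGGCGG, either strand) was also in 78.9% of the 19 windows, against 35.7% of all. The core CACCCCAC was in 2 of the 19 (10.5%), those of Acat2 and Hmgcs1, against 2.87% of all. The longer SRE-1 element, which contains that core, was in 0 of the 19 and in 0.0913% of all windows. The AhR core GCGTG was in 52.6% of the 19 windows against 32.4% of all, the E-box CACGTG in 15.8% against 7.15%, and the consensus DR4 repeat of the liver X receptor in 0 of all 37 member windows and 0.0152% of all. These are matches of letters and not measured binding.

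Gene counts per library ran from 15278423 to 25575317. The 34 members other than Fdps had from 119 to 31829 raw counts per library. Levels are CPM, gene counts scaled to a common library size with TMM factors. Cyp1a1, an AhR target used to check exposure, rose from a mean of 2.37 CPM (vehicle) to 2537 CPM in the top dose group. Markers of S1 and S2 proximal tubule summed to 7517 to 14625 CPM over the libraries, and all 6 had counts in each. Some libraries stood apart. Vehicle replicates 1 and 2 and replicates 2 to 5 at 30 µg/kg had summed S3 proximal tubule markers between 292 and 786 CPM, while the other 34 libraries had 1431 to 1941 CPM. Vehicle replicates 1 and 2 were also the lowest of all libraries for thick ascending limb (1124 and 1288 CPM), hepatocyte (197 and 205.5) and macrophage markers (97.8 and 77.7). They were the highest for S1 and S2 proximal tubule (14097 and 14625 CPM) and distal convoluted tubule markers (1719 and 2009.5). Adrenal cortex markers were over 30 CPM in 3 libraries (replicate 1 at 0.03, replicate 4 at 1 and replicate 2 at 3 µg/kg), none of them in the vehicle, 10 or 30 µg/kg groups. The tissue pieces were not single cell types, and fewer cells of a type cannot be told apart from less RNA per cell.

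In vehicle kidneys the members ranged widely in level per kilobase of exon. Me1 (145 ± 14.4 CPM per kb, SD, n = 5) and Scd1 (141 ± 40.3) were the highest and did not differ beyond their spread. Hmgcs1 followed at 78.8 ± 13.8, then Acly at 54.4 ± 13.8, Cyp51 at 51.2 ± 18.1, Fasn at 48.9 ± 18.2 and Scd2 at 47.4 ± 9.44, of which the last 4 overlapped within their SD. Of the sterol genes that fell at 30 µg/kg, Mvd was at 37.5 ± 4.07, Nsdhl at 25.0 ± 4.06, Idi1 at 16.1 ± 2.82, Sqle at 15.4 ± 2.62, Sc5d at 11.5 ± 1.54 and Dhcr7 at 5.76 ± 0.359 CPM per kb. Idi1 and Sqle did not differ beyond their spread. Abcg1 was at 2.25 ± 0.252 CPM per kb. Fdps, the gene of farnesyl diphosphate synthase, was listed lowest at 0.168 ± 0.122, with only 1 to 32 raw counts per library (median 11). Its exons share 26.7% of their bases with Gm43738 in the GENCODE M21 annotation. Whether this overlap accounts for the low counts was not tested, and the value may not be its level.

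Each dose was compared with the same 5 vehicle libraries, so the comparisons are not independent. At 0.03, 0.1, 0.3, 1, 3 and 10 µg/kg, 0 of the 35 genes were called by edgeR's quasi-likelihood test (Benjamini-Hochberg adjusted p under 0.05 over all genes), and DESeq2 also called 0. Of all 17345 genes, the percentages called at these doses were 0, 0, 0.00577, 0.513, 1.09 and 4.82. Those called higher were 0.507% at 1, 1.03% at 3 and 3.82% at 10 µg/kg, and those called lower were 0.00577%, 0.0634% and 0.997%. The members with an unadjusted p under 0.05 numbered 2, 6, 1, 3, 3 and 4 of 35, beside 5.67, 5.53, 5.23, 7.1, 8.95 and 15.7% of all genes. At 30 µg/kg, 10 of the 35 were called (28.6%), 8 lower and 2 higher, against 15.9% of all genes called (7.55% lower and 8.39% higher). DESeq2 called the same 10. The median log2 fold change of the 35 members at 30 µg/kg was -0.12, and that of all genes was 0.01. The map of fold changes by dose shows where these calls lay.

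**Figure D1:**
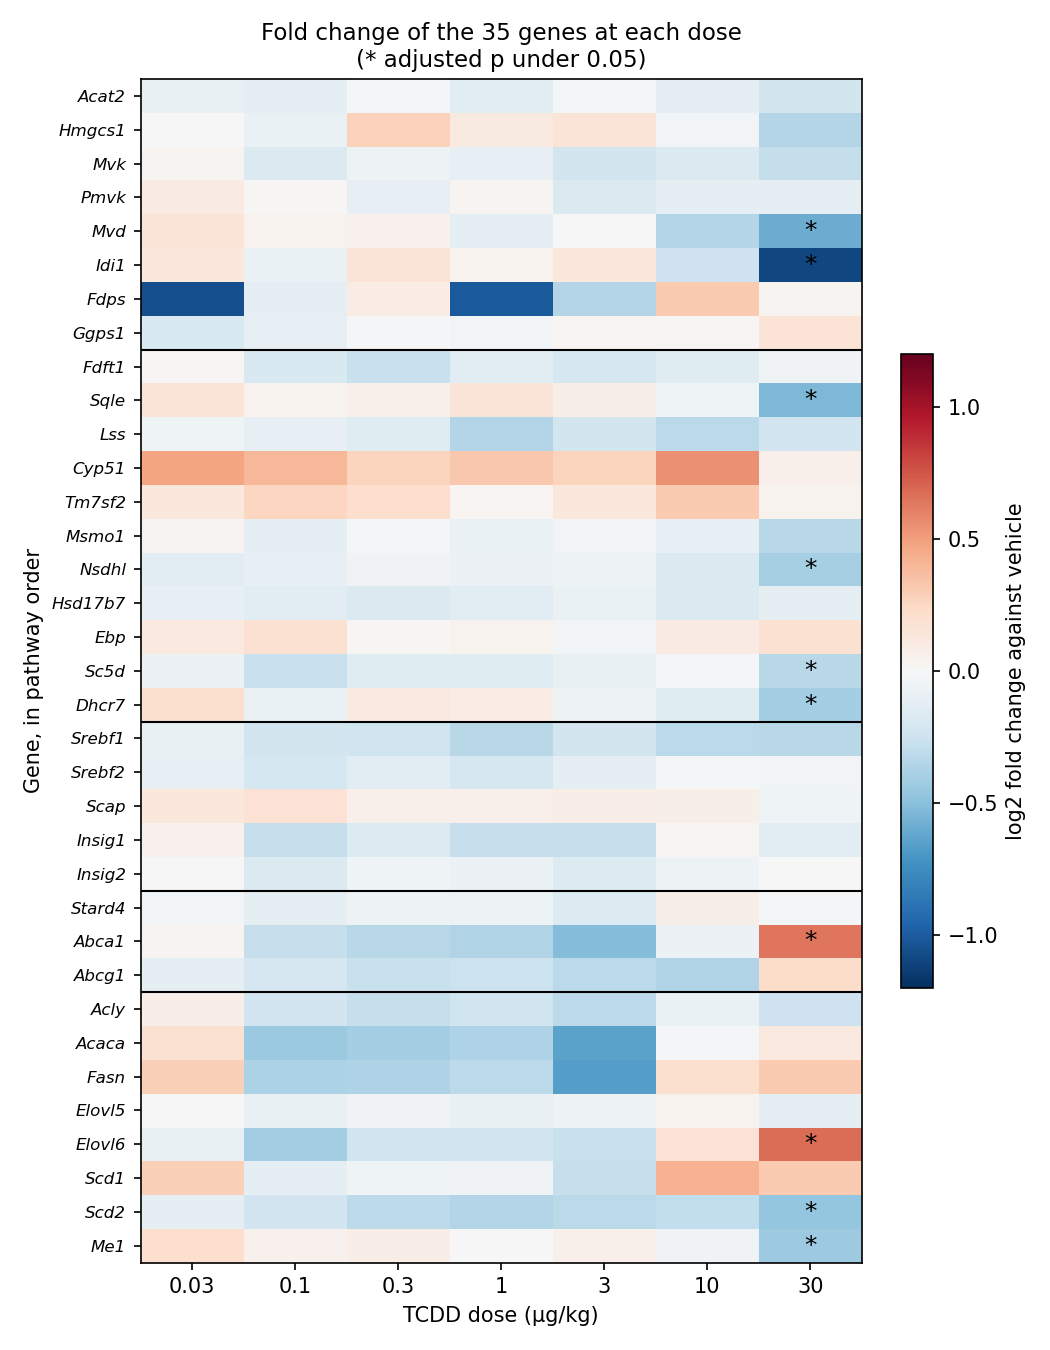
Log2 fold change against vehicle of the 35 genes (vertical axis, in pathway order, with lines between roles) at each TCDD dose (horizontal axis, µg/kg). Blue is lower and red is higher than vehicle, and asterisks mark the 10 genes with an edgeR adjusted p under 0.05, all at 30 µg/kg.

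Of the 19 genes that encode enzymes of sterol synthesis, 6 fell at the highest dose (31.6%), beside 7.55% of all genes called lower. The other 13 were not called. A negative log2 fold change was found in 14 of the 19 (median -0.23). The 6 were Mvd, Idi1, Sqle, Nsdhl, Sc5d and Dhcr7, whose fitted levels fell by 20.6 to 52.9%. No member had all 5 of its 30 µg/kg libraries below, or all 5 above, every vehicle library. Ranges that did not overlap, with all of the dose group lower or all higher, were found for 2.83% and 3.59% of all genes.

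Among the mevalonate and isoprenoid steps, 2 of 8 genes were called (25%), both lower, beside 7.55% of all genes called lower. Mvd encodes the decarboxylase that makes isopentenyl diphosphate. Its vehicle libraries had 64.9, 61.7, 79.2, 76.3 and 66.6 CPM (replicates 1 to 5), and its 30 µg/kg libraries had 67.3, 47.1, 34.4, 37.4 and 43.7 CPM. Replicate 1 at 30 µg/kg was inside the vehicle range and the other 4 libraries lay below it. The log2 fold change, -0.60 ± 0.12 (SE), had an edgeR quasi-likelihood adjusted p of 0.00036. At 10 µg/kg Mvd already had 54.2, 40.6, 61.4, 59.2 and 58.2 CPM. All 5 of these lay below every vehicle library, which was so for 1.82% of all genes (4.32% had all 5 above), but the test missed the threshold (log2 fold change -0.35 ± 0.12, edgeR adjusted p = 0.0866).

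Idi1, the gene of isopentenyl diphosphate isomerase, had the lowest fold change of the 35 at 30 µg/kg. Vehicle libraries had 58.8, 39.9, 59.3, 66.6 and 57.6 CPM and 30 µg/kg libraries 51.6, 38.2, 15.0, 6.68 and 21.2 CPM. Replicates 3 to 5 at 30 µg/kg were far below all vehicle libraries, replicate 2 was just below the lowest of them and replicate 1 was inside their range. Its log2 fold change, -1.09 ± 0.27 (SE), had an edgeR adjusted p of 0.00395. At 10 µg/kg its mean was 47.6 ± 6.82 CPM (SD, n = 5; log2 fold change -0.25 ± 0.26, edgeR adjusted p = 0.736). In GENCODE M21, 9.22% of its exonic bases are shared with Gm48574.

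Hmgcs1, whose product condenses acetoacetyl-CoA to HMG-CoA, was not called. It had 364, 334, 470.0, 327 and 314 CPM in vehicle mice, and 414, 311, 226, 179 and 285 CPM at 30 µg/kg. Here 4 of 5 libraries lay below all vehicle libraries and replicate 1 was high. The log2 fold change, -0.35 ± 0.14 (SE), had an edgeR adjusted p of 0.0833, and without replicate 1 at 30 µg/kg Hmgcs1, Acat2 and Msmo1 passed the threshold too. The other 5 genes of these steps had log2 fold changes of -0.29 (Mvk, mevalonate kinase), -0.22 (Acat2), -0.11 (Pmvk), 0.03 (Fdps) and 0.16 (Ggps1). Acat2 has a near-identical copy, Acat3, so its counts are uncertain. Hmgcs1 shares 12.1% of its exonic bases with Gm48342 in GENCODE M21.

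From squalene to cholesterol, 4 of 11 genes were called (36.4%) and all 4 were lower, beside 7.55% of all genes called lower. Sqle encodes squalene epoxidase, which makes the epoxide that is closed into lanosterol. It stood at 74.5, 68.1, 105, 91.0 and 87.9 CPM in vehicle mice, and 96.6, 66.2, 34.3, 32.1 and 63.8 CPM at 30 µg/kg. Replicates 3 and 4 were lowest, replicates 2 and 5 lay just under the vehicle range, and replicate 1 was inside it. The log2 fold change, -0.54 ± 0.18 (SE), had an edgeR adjusted p of 0.0362.

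Nsdhl, a dehydrogenase that takes part in removing methyl groups from the sterol ring, had 89.3, 72.9, 65.7, 70.4 and 57.8 CPM in vehicle mice, and 77.8, 68.8, 42.9, 32.8 and 48.1 CPM at 30 µg/kg. Replicates 3 to 5 lay below all vehicle libraries and replicates 1 and 2 within them (log2 fold change -0.40 ± 0.13, edgeR adjusted p = 0.0372). Sc5d, the lathosterol oxidase gene, had 69.0, 53.7, 55.9, 51.6 and 50.4 CPM in vehicle mice, and 50.3, 50.6, 46.1, 36.2 and 39.8 CPM at 30 µg/kg. Its fall was smaller and more even, with 4 of 5 libraries below all vehicle libraries (log2 fold change -0.33 ± 0.08, edgeR adjusted p = 0.00261). Dhcr7 encodes the reductase of the last step to cholesterol. It had 33.6, 30.2, 35.3, 33.3 and 35.3 CPM in vehicle mice, and 30.3, 29.0, 15.8, 19.9 and 30.4 CPM at 30 µg/kg, with replicates 3 and 4 far below the rest (log2 fold change -0.41 ± 0.13, edgeR adjusted p = 0.0284).

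Cyp51, the lanosterol demethylase gene, was not called. Vehicle replicates 1 and 2 had 152 and 127 CPM while the other vehicle libraries had 279.9, 279.9 and 293 CPM. At 30 µg/kg it had 352, 197, 113, 193 and 326 CPM, giving 0.06 ± 0.20 on the log2 scale (edgeR adjusted p = 0.886). At 10 µg/kg it had 292 to 370.5 CPM, and 4 of 5 libraries lay above all vehicle libraries (log2 fold change 0.55 ± 0.20, edgeR adjusted p = 0.124). Vehicle replicates 1 and 2 and replicates 2 to 4 at 30 µg/kg were low in both Cyp51 and S3 markers, while replicate 5 at 30 µg/kg was low in S3 markers with 326 CPM of Cyp51. None of the other 6 genes of this stretch was called at the top dose, with log2 fold changes of -0.33 (Msmo1), -0.23 (Lss), -0.12 (Hsd17b7), -0.04 (Fdft1), 0.04 (Tm7sf2) and 0.18 (Ebp). Fdft1 shares 18.3% of its exonic bases with Ctsb and Tm7sf2 12.1% with Vps51.

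**Figure D2:**
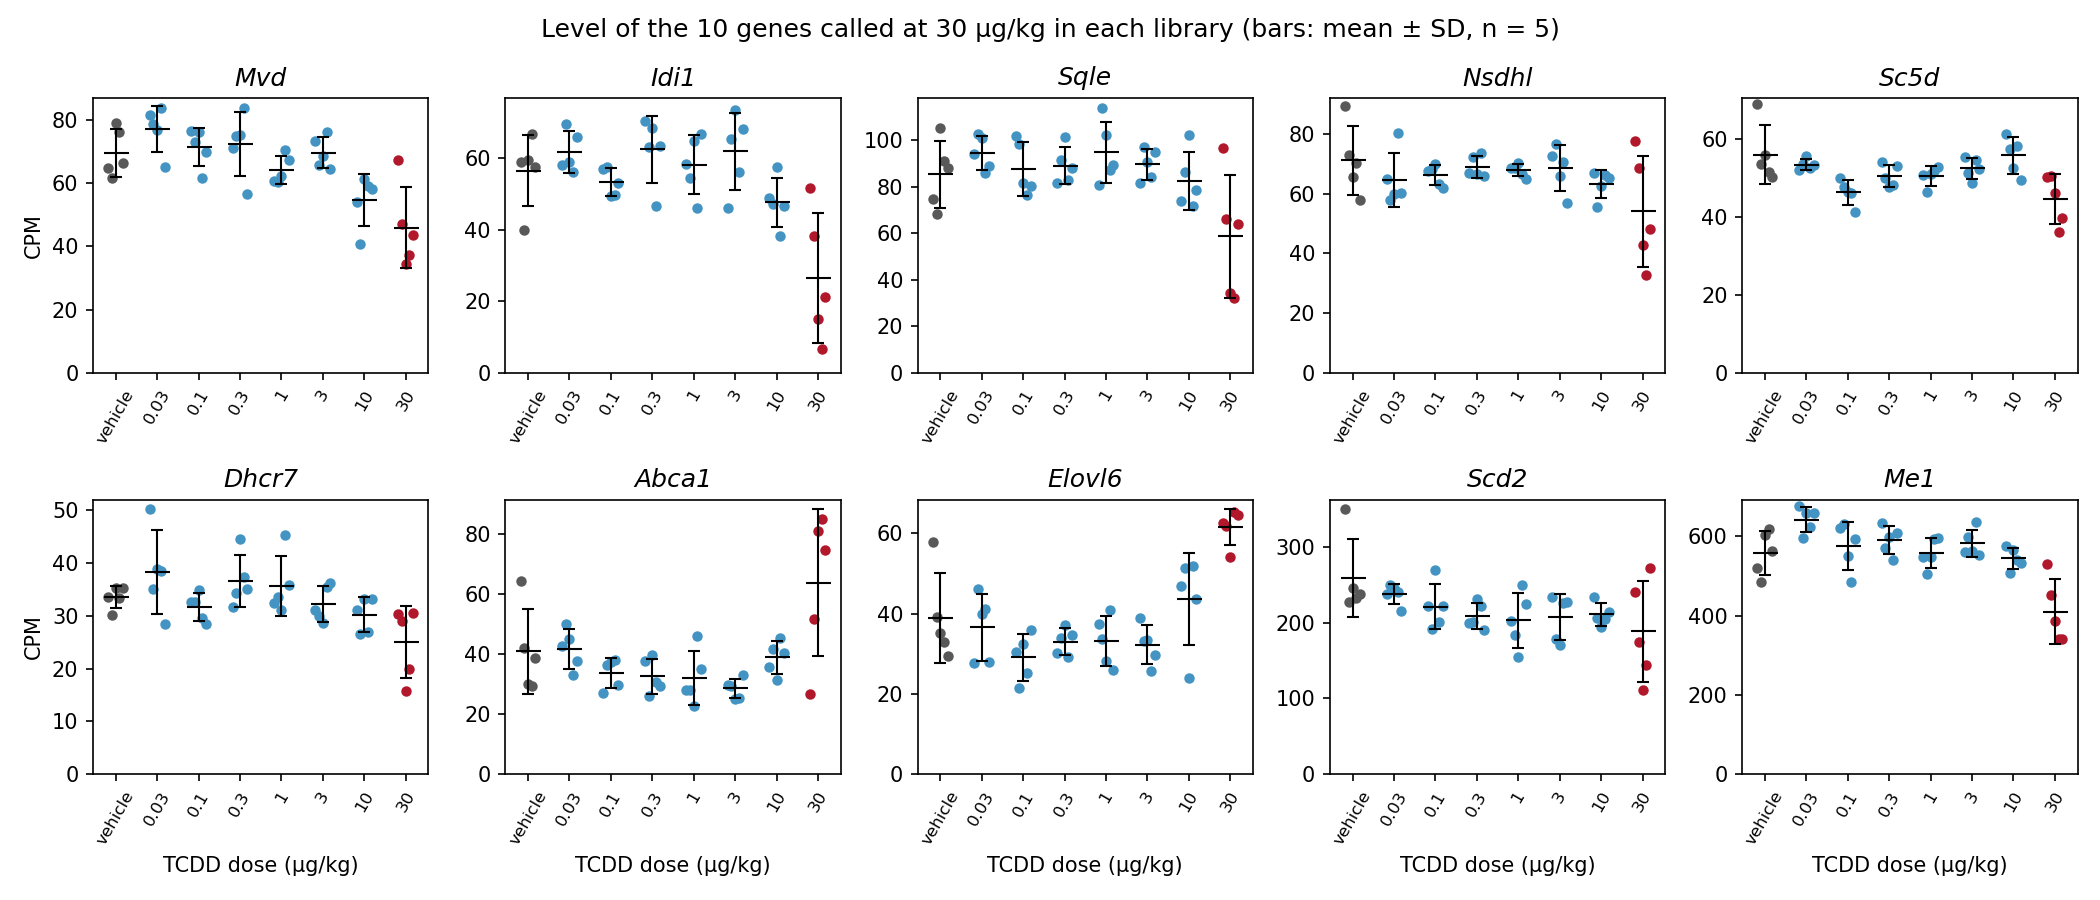
CPM (vertical axes, from 0) of the 10 genes called at 30 µg/kg in each of the 40 libraries by dose group (horizontal axes, TCDD in µg/kg), 1 point per library, with bars for the mean ± SD (n = 5). Vehicle is grey, 30 µg/kg is red, and the 30 µg/kg points of Idi1 run from 6.68 to 51.6 CPM.

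The regulators themselves were not called at any dose. At 30 µg/kg, 0 of the 5 genes of SREBP and its control passed edgeR's test, 0 had an unadjusted p under 0.05, and DESeq2 called 0. With 15.9% of all genes called, 5 genes are too few to tell 0 apart from that share. Srebf1 had 155, 103, 86.0, 102 and 93.9 CPM in vehicle mice, and 112, 75.4, 59.5, 57.0 and 126 CPM at 30 µg/kg, with overlapping ranges (log2 fold change -0.33 ± 0.17, edgeR adjusted p = 0.202). Srebf2 was at 156 ± 21.3 CPM in vehicle mice, and 153 ± 17.7 CPM at 30 µg/kg (SD, n = 5), a log2 fold change of -0.03 ± 0.08. Insig1, itself a target of SREBP, had 101, 41.5, 56.8, 62.0 and 56.0 CPM in vehicle mice, and 68.5, 71.4, 30.8, 41.0 and 74.8 CPM at 30 µg/kg (log2 fold change -0.14 ± 0.20). Scap shares 13.2% of its exonic bases with 5830462I19Rik in GENCODE M21. Scap and Insig2 had log2 fold changes of -0.05 and 0.00, each with an SE under 0.1. Counts of these transcripts say nothing of how much SREBP was cut and active.

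In sterol transport and efflux, 1 of 3 genes was called (33.3%), beside 15.9% of all genes. Abca1 encodes the pump that loads cholesterol onto apolipoprotein A-I. It had 64.4, 41.9, 30.1, 29.4 and 38.8 CPM in vehicle mice, and 26.6, 51.6, 80.9, 84.8 and 74.5 CPM at 30 µg/kg. Replicates 3 to 5 lay above all vehicle libraries and replicate 1 below them all (log2 fold change 0.64 ± 0.22, edgeR adjusted p = 0.0473). At 3 µg/kg it stood at 28.5 ± 3.26 CPM (SD, n = 5; log2 fold change -0.52, edgeR adjusted p = 0.473). Abcg1 had 16.2, 8.54, 16.1, 28.7 and 25.7 CPM at 30 µg/kg against 13.7 to 17.8 CPM in vehicle (log2 fold change 0.22 ± 0.19, edgeR adjusted p = 0.502). Stard4, a carrier of sterol between membranes, had a log2 fold change of -0.01 ± 0.09. Macrophages are rich in both pumps. At 30 µg/kg, 5 of 7 macrophage markers were called higher (71.4%), beside 8.39% of all genes. None of the 7 was at 0 in any library. Their sum was 159 to 215 CPM against 77.7 to 139 CPM in vehicle, where replicates 1 and 2 were lowest. At 10 µg/kg the same number of markers, 5 of 7, was called higher (beside 3.82% of all genes) and the sum was 187 to 228 CPM. Abca1 at that dose had a log2 fold change of -0.07 ± 0.22. At 3 µg/kg 5 of 7 were called higher too (beside 1.03% of all genes), with a sum of 159 to 192 CPM. Whether macrophage content bears on the level of Abca1 was not tested.

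Fatty acid synthesis genes moved in both directions at 30 µg/kg. Of 8, 1 was called higher (Elovl6) and 2 lower (Scd2 and Me1), together 37.5%, beside 15.9% of all genes. The median log2 fold change was 0.00 or just below it. Elovl6 lengthens palmitate to stearate. It had 57.9, 39.2, 35.2, 32.9 and 29.5 CPM in vehicle mice, and 62.7, 61.9, 54.0, 65.3 and 64.5 CPM at 30 µg/kg. All but replicate 3 lay above every vehicle library, and the group was tight (log2 fold change 0.67 ± 0.18, edgeR adjusted p = 0.00845). At 10 µg/kg it had 24.1 to 51.9 CPM and overlapped vehicle (log2 fold change 0.17, edgeR adjusted p = 0.745).

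Me1 encodes malic enzyme, which supplies NADPH for fatty acid synthesis. It had 521, 485, 604, 618 and 563 CPM in vehicle mice, and 529.9, 453, 386, 339.9 and 342 CPM at 30 µg/kg. Replicates 2 to 5 lay below all vehicle libraries (log2 fold change -0.44 ± 0.09, edgeR adjusted p = 0.000176). Scd2, a stearoyl-CoA desaturase gene, had 350.4, 227, 246, 233 and 238 CPM in vehicle mice, and 241, 175, 111, 145 and 272 CPM at 30 µg/kg. Its log2 fold change, -0.46 ± 0.16 (SE), had an edgeR adjusted p of 0.0474, with vehicle replicate 1 far above the other vehicle libraries.

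Fasn, the fatty acid synthase gene, spread widely within groups. It had 839.8, 555, 308, 553 and 419 CPM in vehicle mice, and 669, 658, 287, 683 and 1018 CPM at 30 µg/kg (log2 fold change 0.31 ± 0.37, edgeR adjusted p = 0.65). Scd1, another desaturase gene, had 401 to 954 CPM in vehicle mice, and 426 to 1165 CPM at 30 µg/kg (log2 fold change 0.31 ± 0.31, edgeR adjusted p = 0.566). In both genes replicate 3 at 30 µg/kg was lowest and replicate 5 highest, and the groups overlapped. Acly, Acaca and Elovl5 had log2 fold changes of -0.25, 0.12 and -0.12 and were not called.

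**Figure D3:**
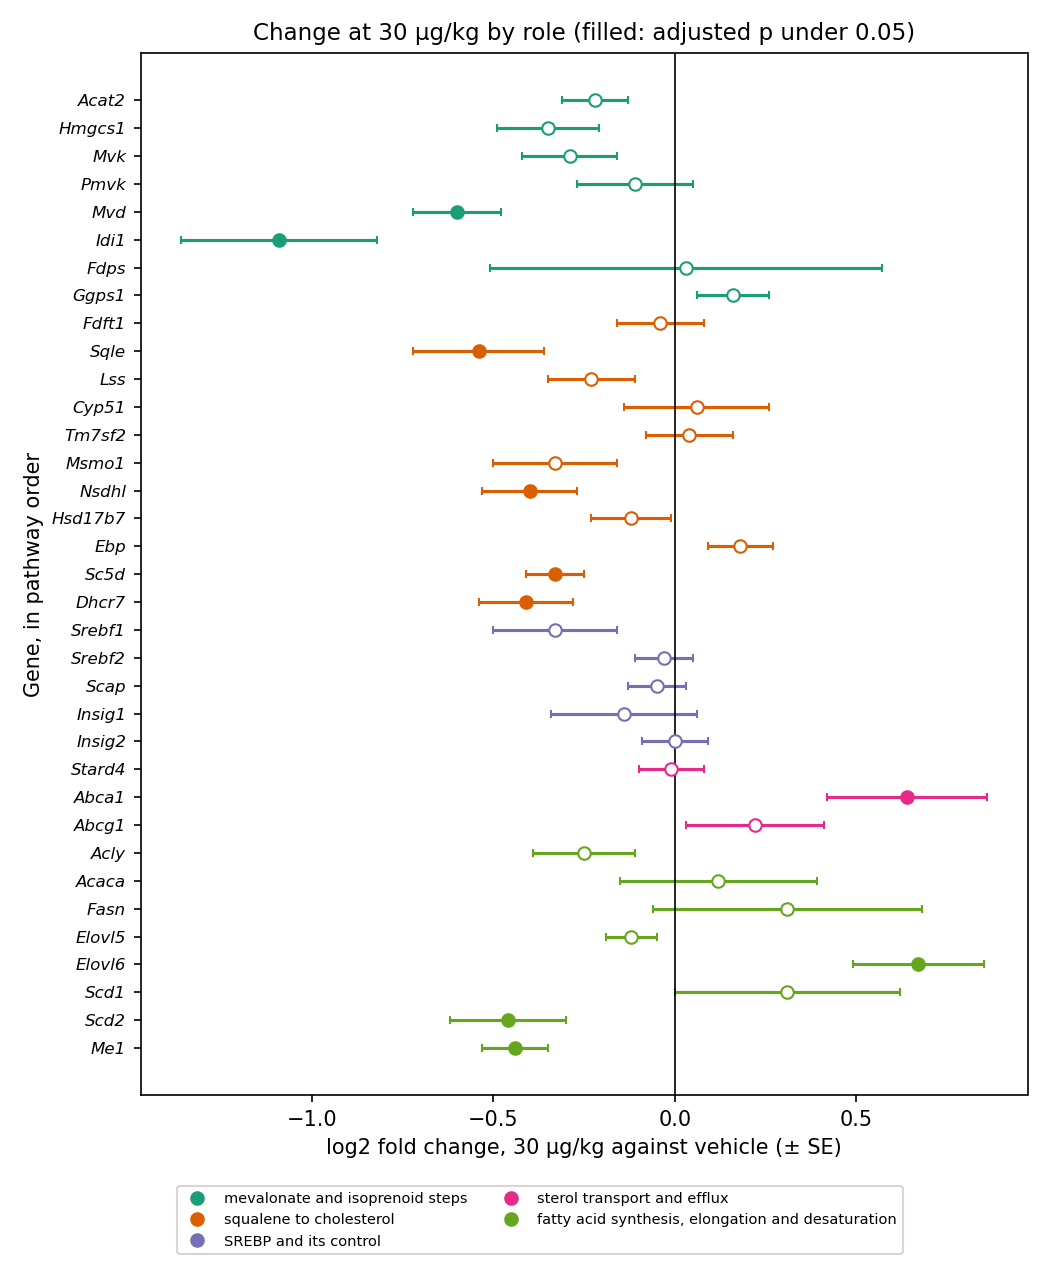
Log2 fold change at 30 µg/kg against vehicle (horizontal axis) with bars of 1 SE for each of the 35 genes (vertical axis, pathway order), coloured by role, with filled points for the 10 genes with an edgeR adjusted p under 0.05. The filled sterol synthesis points all lie left of 0, between -1.09 and -0.33, and all 5 points of SREBP and its control are open.

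The level of Fasn followed fat cell markers. Over deviations of log2 CPM from the group mean in the 40 libraries, Fasn went with Scd1 (Pearson r = 0.934, Spearman rho = 0.842) and with Acly (r = 0.805, rho = 0.751). Each had a two-sided within-group permutation p of 1.0e-05 for r and rho, the smallest that 100000 resamples can give, and 4.0e-05 after adjustment over 8 pairs. Without the 2 libraries farthest from the median of Fasn, r was 0.935 and 0.800. For Fasn with Me1 no relation was detected (r = -0.152, permutation p = 0.42, adjusted 0.42; rho = -0.195, permutation p = 0.256, adjusted 0.292; r = -0.158 without 2 libraries). In 8 pairs chosen after seeing the data, the sum of 7 adipocyte markers went with Fasn (r = 0.846, rho = 0.802), Scd1 (r = 0.817, rho = 0.845) and Elovl6 (r = 0.719, rho = 0.763), with permutation p of 1.0e-05 and adjusted values of 2.7e-05 for r and 2.0e-05 for rho. Without the 2 libraries farthest from the median of the sum, r was 0.805, 0.785 and 0.766. With Abca1 the sum had r = 0.385 (permutation p = 0.0326, adjusted 0.0372) and rho = 0.286 (permutation p = 0.118, adjusted 0.118), and r was 0.249 without those libraries. The other 4 pairs set the S3 sum against sterol genes.

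The adipocyte sum was 60.7 to 187 CPM in vehicle mice, and 121 to 362 CPM at 30 µg/kg. Of its 7 markers 1 was called at 30 µg/kg (Lep, lower), beside 7.55% of all genes called lower. Of the 7, 5 had counts in every library. With this sum as a covariate, Elovl6 kept its call with a smaller value, 0.45 on the log2 scale (edgeR adjusted p = 0.014), and 8 members were called in place of 10. These were 7 of the 10 with Acly added and Abca1, Nsdhl and Sqle lost.

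Hmgcs1 was also set against 4 other members. It went with Idi1 (r = 0.780, permutation p = 1.8e-04, adjusted 4.8e-04; rho = 0.586, permutation p = 0.00138, adjusted 0.00368), and r was 0.563 without replicates 1 and 4 at 30 µg/kg, the libraries farthest from the median. Hmgcs1 and Sqle had r = 0.670 (permutation p = 0.00469, adjusted 0.00938) but rho = 0.393 (permutation p = 0.0389, adjusted 0.0777), and r of 0.398 without those libraries, so that relation rested in part on them. For Hmgcs1 and Abca1, r was -0.549 (permutation p = 0.0203, adjusted 0.0325) and rho -0.283 (permutation p = 0.13, adjusted 0.209), with r of -0.290 without the same libraries. Hmgcs1 with Cyp51 had r = 0.395 (permutation p = 0.174, adjusted 0.231) and rho = 0.205 (permutation p = 0.301, adjusted 0.301). For Hmgcs1 with Insig1, r was 0.309 (permutation p = 0.254, adjusted 0.29) and rho 0.262 (permutation p = 0.183, adjusted 0.244). Without the same libraries r was 0.256 and 0.164.

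The libraries low in S3 markers differed in their sterol genes. Of the 5 S3 markers, 3 were called lower at 30 µg/kg (60%), beside 7.55% of all genes. All 5 had counts in every library. Their sum in vehicle was 681, 786, 1763, 1705 and 1619 CPM, and at 30 µg/kg 1431, 783, 292, 556 and 690.4 CPM. Idi1 in replicates 3 to 5 at 30 µg/kg (6.68 to 21.2 CPM) lay below vehicle replicates 1 and 2 (58.8 and 39.9 CPM). The S3 sums of those vehicle libraries were 681 and 786 CPM. Replicates 3 and 4 at 30 µg/kg had lower S3 sums than both (292 and 556 CPM), so they were not matched to them. Replicate 2 at 30 µg/kg, with an S3 sum of 783 CPM, had 38.2 CPM of Idi1, close to vehicle replicate 2. Replicate 5 at 30 µg/kg, with an S3 sum of 690.4 CPM, had 21.2 CPM of Idi1. That was far below the 58.8 CPM of vehicle replicate 1, whose S3 sum was 681 CPM. Sqle in replicates 2 and 5 at 30 µg/kg (66.2 and 63.8 CPM) was close to vehicle replicates 1 and 2 (74.5 and 68.1 CPM). Many other sterol synthesis genes were highest in vehicle replicate 1 among the vehicle libraries. These were Acat2 (137 CPM), Nsdhl (89.3), Sc5d (69.0), Msmo1 (58.4), Fdft1 (46.7) and Lss (45.7 CPM). Hsd17b7 (34.5), Ggps1 (31.7), Mvk (19.4), Pmvk (16.9) and Tm7sf2 (15.8 CPM) were highest there too. Vehicle replicate 2, also low in S3 markers, was inside the range of the other vehicle libraries for each of them except Pmvk. For Pmvk it was the lowest vehicle library (11.5 CPM). Vehicle replicate 1 also had the highest adipocyte sum of the vehicle libraries (187 CPM). No pooled correlation with the S3 sum is given, because the 6 low libraries formed a cluster apart that was made up of vehicle and 30 µg/kg mice.

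The S3 sum as a covariate, an alternative chosen after seeing the data, left 4 members called at 30 µg/kg. These were Mvd (log2 fold change -0.37, edgeR adjusted p = 0.0297), Me1 (-0.26, adjusted p = 0.0398) and Sc5d (-0.35, adjusted p = 0.00994), with Cyp51 added as higher. Idi1 moved to -0.67 (edgeR adjusted p = 0.0665), Sqle to -0.13 (adjusted p = 0.629), Dhcr7 to -0.22 (adjusted p = 0.409) and Abca1 to 0.02 (adjusted p = 0.974). The sum itself was lower at 30 µg/kg, so what belongs to dose and what to the S3 sum cannot be told apart. Without vehicle replicates 1 and 2, also chosen after seeing the data, 7 of the 10 remained called, and Nsdhl, Sc5d and Scd2 did not (edgeR adjusted p = 0.292, 0.0567 and 0.219).

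**Figure D4:**
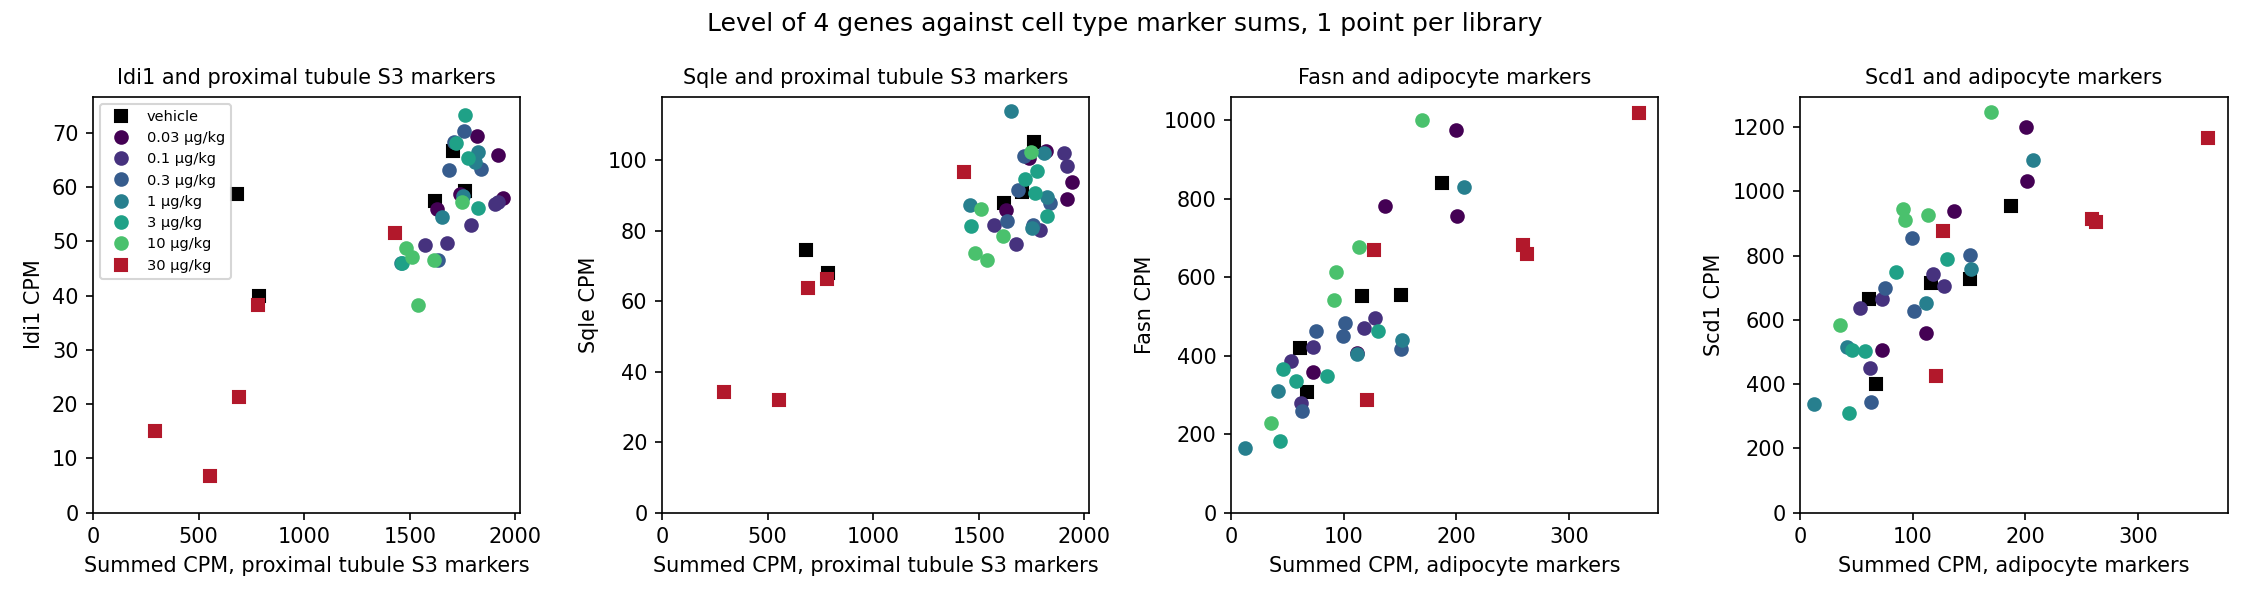
CPM of Idi1 and Sqle against the summed CPM of 5 S3 proximal tubule markers, and of Fasn and Scd1 against the summed CPM of 7 adipocyte markers, with 1 point per library and squares for vehicle (black) and 30 µg/kg (red). Of the 6 libraries with S3 sums under 1000 CPM, 2 are vehicle and 4 are 30 µg/kg, and adipocyte sums run from 60.7 to 187 CPM in vehicle and from 121 to 362 CPM at 30 µg/kg.

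Calls at 30 µg/kg differed in how far they rested on single libraries. Mvd and Me1 were called in every fit run, with edgeR adjusted p up to 0.0394 and 0.0476. Idi1, Sc5d and Elovl6 were called in all 10 fits that left out 1 library. Nsdhl, Abca1, Dhcr7, Sqle and Scd2 lost the call in 6, 7, 4, 5 and 7 of those 10 fits, with the highest edgeR adjusted p over all fits at 0.333, 0.974, 0.409, 0.629 and 0.302. The number called was 5 without replicate 3 or replicate 4 at 30 µg/kg, 6 without vehicle replicate 3 or 4, and 13 without replicate 1 at 30 µg/kg.

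The 30 µg/kg group was also set against 10 µg/kg, a comparison without the vehicle libraries. Me1 and Sc5d were called, both lower, so 2 of 35 members (5.71%) against 2.7% of all genes (1.52% lower and 1.19% higher). The log2 fold changes were -0.41 ± 0.09 for Me1 (edgeR adjusted p = 0.00408) and -0.33 ± 0.08 for Sc5d (edgeR adjusted p = 0.0151). Abca1 (0.71 ± 0.22, adjusted p = 0.0818) and Idi1 (-0.84 ± 0.27, adjusted p = 0.0868) had larger values with wider errors and missed edgeR's threshold. The number called was 9 without replicate 1 at 30 µg/kg and 4 without replicate 2, and it was 1 without replicate 4 or 5 at 30 or replicate 1 at 10 µg/kg, where Sc5d lost its call.

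A slope over the dose rank, from 0 for vehicle to 7 for 30 µg/kg, was called for 7 of 35 members (20.0%) against 19.8% of all genes (8.84% lower and 11% higher), so the share was that of all genes. Mvd fell by 5.52% per dose step (edgeR adjusted p = 0.000161), Dhcr7 fell by 3.69% (adjusted p = 0.015) and Scd2 fell by 3.54% (adjusted p = 0.0179). Me1 fell by 3.43% (edgeR adjusted p = 0.00267), Lss, the lanosterol synthase gene, fell by 2.81% (adjusted p = 0.0167) and Mvk fell by 2.62% (adjusted p = 0.0479). For Elovl6 the slope was upward, 5.70% per step (edgeR adjusted p = 0.018). These are fitted slopes and do not show an even change from dose to dose. The log2 fold changes of Elovl6 against vehicle were -0.09, -0.42, -0.24, -0.23 and -0.27 at 0.03, 0.1, 0.3, 1 and 3 µg/kg. They were 0.17 at 10 and 0.67 at 30 µg/kg, and only the last was called. Without the 30 µg/kg group Mvd, Lss and Scd2 were still called and the other 4 were not. With the S3 covariate Elovl6, Mvk and Dhcr7 lost their calls, and with the counts of 1 strand column Lss and Scd2 lost theirs. Without vehicle replicate 1, 5 members were called and Lss, Scd2 and Mvk lost their calls. Without replicate 4 at 30 µg/kg, Elovl6 and Mvk lost theirs. Mvk, a kinase gene, had 17.2 to 19.4 CPM in vehicle mice, and 9.54 to 19.4 CPM at 30 µg/kg, and was no longer called after leaving out any of 6 of the 10 vehicle and 30 µg/kg libraries in turn.

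Neighbouring genes of the same routes, listed by function, are given for comparison. Of 8 other genes of sterol and isoprenoid synthesis, 3 were called at 30 µg/kg, all lower (37.5%), beside 7.55% of all genes called lower. Among them were Pdss1, of the coenzyme Q side chain (log2 fold change -0.37, edgeR adjusted p = 0.0404), and Nus1, of dolichol synthesis (log2 fold change -0.43, edgeR adjusted p = 0.0162).

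Of 23 genes of sterol uptake, sensing and storage, 3 were called higher and 2 lower (21.7%), beside 15.9% of all genes. Mylip, a ubiquitin ligase gene induced by liver X receptors, had 44.4, 27.1, 30.9, 30.9 and 48.2 CPM in vehicle mice, and 28.1, 34.3, 107, 89.1 and 75.8 CPM at 30 µg/kg (log2 fold change 0.88, edgeR adjusted p = 0.0161). Apoe, of apolipoprotein E, had 268, 273, 156, 177 and 199 CPM in vehicle mice, and 217, 321, 926, 751 and 619 CPM at 30 µg/kg (log2 fold change 1.40, edgeR adjusted p = 8.6e-05). Both were high in replicates 3 to 5, the libraries in which Abca1 was high and Idi1 low. Those libraries were also low in S3 markers, as was replicate 2, and the other pump gene, Abcg1, was not called. What these genes share was not tested. Gramd1a, a sterol carrier gene, was higher (0.41), and Gramd1b (-0.36) and Cyp7b1 (-1.66), an oxysterol hydroxylase gene that is also 1 of the 5 S3 markers, were lower.

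Of 25 other genes of fatty acid and glyceride synthesis, 23 were tested and 7 were called, 3 higher and 4 lower (30.4%), beside 15.9% of all genes. Acacb, the acetyl-CoA carboxylase of mitochondria (0.77, edgeR adjusted p = 0.0012), and Elovl2, an elongase gene (0.48, adjusted p = 0.00118), were higher. Elovl3, an elongase gene active in brown fat, had 0.00 to 0.173 CPM in vehicle mice, and 1.29 to 5.78 CPM at 30 µg/kg, and no fold is given because vehicle was near 0. The sum of 3 brown adipocyte markers was 10.9 to 36.1 CPM in vehicle and 79.1 to 167 CPM at 30 µg/kg. Of the 3, 1 was called higher (Ucp1), beside 8.39% of all genes, and 2 had counts in every library. The part of this sum in the Elovl3 and Elovl6 results was not tested. Aacs, an acetoacetyl-CoA synthetase gene, was at 117 to 200.2 CPM in vehicle mice, and at 49.4 to 163 CPM at 30 µg/kg (-0.92, edgeR adjusted p = 0.00987). Acss2 (-0.48), Mlxipl (-0.34) and Elovl1 (-0.19) were the others that fell.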

How the data were processed

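Right kidneys of 40 male mice, 5 per group, were sequenced as 150 bp paired-end reads from about 100 mg of tissue with RNA integrity numbers of at least 7, per the labels' protocols. The authors deposited whole-number gene counts per library in files laid out like STAR gene count output. Per the submitters' processing notes, FastQC 0.11.7, Trimmomatic 0.39, STAR 2.7.3a and DESeq2 were used, with the builds GRCm39 and mm10 named without a role. The annotation is not given in the sources used here, and the deposited log2-like table was not used.

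From the unstranded counts, CPM with TMM factors was computed, and 17345 genes passed edgeR's filterByExpr by group. The 2 strand columns held near-equal counts (50.4 to 51% in the first), so the libraries carry no strand. Unstranded counts do not tell overlapping genes on opposite strands apart. Contrasts used edgeR 4.0.16 (quasi-likelihood, robust, R 4.3.3) over all 40 libraries, with Benjamini-Hochberg adjustment over all genes and a threshold of 0.05. The biological coefficient of variation was 17.1%. GENCODE M21 gave symbols, exon lengths and overlaps, and symbols were found for 52083 identifiers. The test was checked on simulated counts. DESeq2 1.42.0, size factors, the counts of 1 strand column, no filter, covariates and left-out libraries were alternatives. Correlations used log2 CPM with a prior count of 2.

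The labels number no replicates, so replicates carry the order of deposition. The 80 pairs within groups differed by 6.90 to 78.8 chi-square units per degree of freedom, far over sampling noise. Each library is 1 mouse, and count-based precision covers counting error only. Members and lists were chosen with earlier results of these data known. All members are accounted for: those called in any comparison are named with values, the others with their fold change at 30 µg/kg, and of the neighbouring genes only called ones are named. Some neighbouring genes are not reported here. Cyp1a1 is given once as a check of exposure.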

Additional observations from a re-analysis of the deposited data

Results flagged for a closer look

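For the 12 members called in at least 1 comparison, 96 groups of 5 libraries were searched for a single value set apart from the other 4 by a gap of over 0.71 of the range in that group. Chance sets apart about 1 in 20 groups, and 2 were found here. Both lay in vehicle replicate 1. Lss was at 45.7 CPM there, and the next vehicle value was 31.4 CPM. Scd2 was at 350.4 CPM there, and the next vehicle value was 246 CPM. Without this library, Lss and Scd2 lost their calls in the slope over dose, and Scd2 lost its call at 30 µg/kg.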

How the results depend on the processing

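At 30 µg/kg, 10 members were called. The number was 5 with no filter on low counts, 3 in the fit to the 2 groups alone and 4 with the S3 marker covariate, and 5 to 13 when 1 library was left out. It was 7 with the counts of 1 of the strand columns, 10 with size factors or DESeq2, 8 with the adipocyte covariate, and 9 without the libraries marked by adrenal genes. At 10 µg/kg, 0 were called, 2 with the S3 covariate (Cyp51 higher, Mvd lower) and 0 whichever library was left out. The slope over dose was called for 7, and for 3 without the 30 µg/kg group, and for 5 to 9 with 1 library left out. For 30 against 10 µg/kg, 2 were called, 4 with DESeq2, 0 in the fit to the 2 groups alone, 0 with the S3 covariate, and 1 to 9 with 1 library left out. The fits to 2 groups had fewer libraries to estimate the spread, and the cause of the differing numbers was not tested for any fit. No fold change of a called member turned direction in any of these fits. At 0.03 to 3 µg/kg, 0 were called in every fit. The S3 covariate and the fits without vehicle replicates 1 and 2 or without adrenal-marked libraries were chosen after seeing the data. No paired analysis was possible because the labels give no replicate numbers that groups share.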
